A study of Mus musculus with 5 samples.

Results

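The dystrophin complex was followed through 8 of its genes, Dmd, Utrn, Dag1, Sgca, Sgcb, Sgcd, Sntb1 and Dtna, in cells sorted from dystrophic mouse muscle. They are 8 of the 36413 gene and feature names on the array. All probes that the array design names for these genes were taken, 16 of the 55681 probes, and each was read on its own. All 5 arrays come from mdx mice on a C57BL/6 background, which carry a mutation of Dmd, so no array has an intact gene and no difference below is one against healthy muscle. Treatment lasted 45 days and was given into the peritoneal cavity: trichostatin A (TSA), which blocks histone deacetylases, at a dose of 0.6 mg per kg, or vehicle alone. From vehicle and TSA mice, interstitial cells were sorted as positive for CD34, alpha7-integrin and Sca1 (2 arrays per treatment). From vehicle mice, muscle satellite cells (MuSC) were sorted by the same markers but without Sca1 (1 array, so this group has no spread of its own). The labels give neither the age or sex of the mice nor whether the replicates came from separate animals, so the p-values measure the spread between these arrays only, which may be technical.

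Dystrophin ties the actin skeleton beneath the muscle membrane to dystroglycan, and dystroglycan binds laminin outside the cell. The sarcoglycans brace dystroglycan in the membrane, while syntrophins and dystrobrevins bind the dystrophin tail and carry signalling proteins. Without dystrophin the complex is largely lost from the fibre membrane, and utrophin, a close relative of dystrophin, can take over part of its role. The Dmd gene has several promoters: the long transcripts start far upstream, and short transcripts, made in many cell types, start inside the gene and share only the part for the C terminus. The mdx mutation is a stop in the rod part of the long transcripts.

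The position of a probe along Dmd therefore decides which transcripts it can read, and the following 60-base probes are shown because their results differ. They are written in the direction of the transcript. The parts of the genes named for them come from background knowledge of the genes and their reading frames, since no mm9 annotation was used here. In the mm9 build, the first lies at chrX:80596782-80596841 (+) in the part coding for the actin-binding domain, the second at chrX:81132417-81132476 (+) in the rod part, 536 kb further on, and the third at chrX:82389391-82389450 (+) in the part for the C terminus, 1793 kb from the first. Another, near the 3' end of the gene at chrX:82451421-82451480 (+), did not rise clearly over background on any of the 5 arrays. The Sgca probe at chr11:94824546-94824605 (-) lies in the coding part of the other gene that rose under TSA.
Dmd actin-binding part, A_55_P2167913: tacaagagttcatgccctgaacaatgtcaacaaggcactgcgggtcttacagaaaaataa
Dmd rod part, A_55_P2167922: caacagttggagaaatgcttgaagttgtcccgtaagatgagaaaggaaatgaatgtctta
Dmd C-terminal part, A_52_P306697: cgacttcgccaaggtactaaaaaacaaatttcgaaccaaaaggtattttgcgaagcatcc
Sgca coding part, A_55_P2007384: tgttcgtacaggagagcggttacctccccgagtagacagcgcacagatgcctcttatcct

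Levels are log2 of the processed intensity minus the array's 75th percentile, so 0 marks that percentile, and a level is only set against levels of the same probe. Differences come from limma across 36027 probes, with its standard error after ± and a Benjamini-Hochberg adjusted p (threshold 0.05). Well above background were 62.1% and 58.5% of the spots with vehicle, 64.7% and 66.9% with TSA and 61.3% in MuSC, and 0 were saturated. The lowest level well above background was -4.62 and -4.42 with vehicle, -5.51 and -5.62 with TSA and -4.70 in MuSC. A dim probe could thus be measured at a lower level with TSA than with vehicle. Against vehicle Sca1+ cells, MuSC were lower for Ly6a, the gene of Sca1 (-5.07), as the gate on Sca1 sets. The gate asks for CD34 and alpha7-integrin in both populations, but their RNA levels differed: Cd34 was lower in MuSC (-3.19) and Itga7 higher (5.80). Of the 16 probes, 15 passed the filter, which keeps a probe if all arrays of some group measured it well above background. The Dmd probes for the actin-binding and rod parts, the coding probe of Sgca and the Dtna probe passed only through the TSA and MuSC arrays. Their calls are therefore a description, and the counts below are no support of a rise.

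Under TSA, the long-transcript probes of Dmd and both probes of Sgca were higher in Sca1+ cells, and no member was called lower. These are 4 of 15 probes called higher (26.7%), where 2.14% of all probes were, and 0 called lower, where 0.128% of all probes were. The median difference over the 15 probes was 0.10, against -0.13 over all probes. In 8 of the 15 probes the vehicle and TSA arrays did not overlap. With 2 arrays against 2 this held for 57.9% of all probes, so that count is close to the background, and 4 of the 8 missed the threshold. In MuSC against vehicle Sca1+ cells, Dmd, Sgca, Dag1 and Dtna were higher and Sgcd was lower. There 6 of 15 probes were called higher (40%), where 9.37% of all probes were. The 2 called lower (13.3%) are close to the 10.2% of all probes called lower. These comparisons share the vehicle arrays, so their values are given side by side only.

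**Figure D1:**
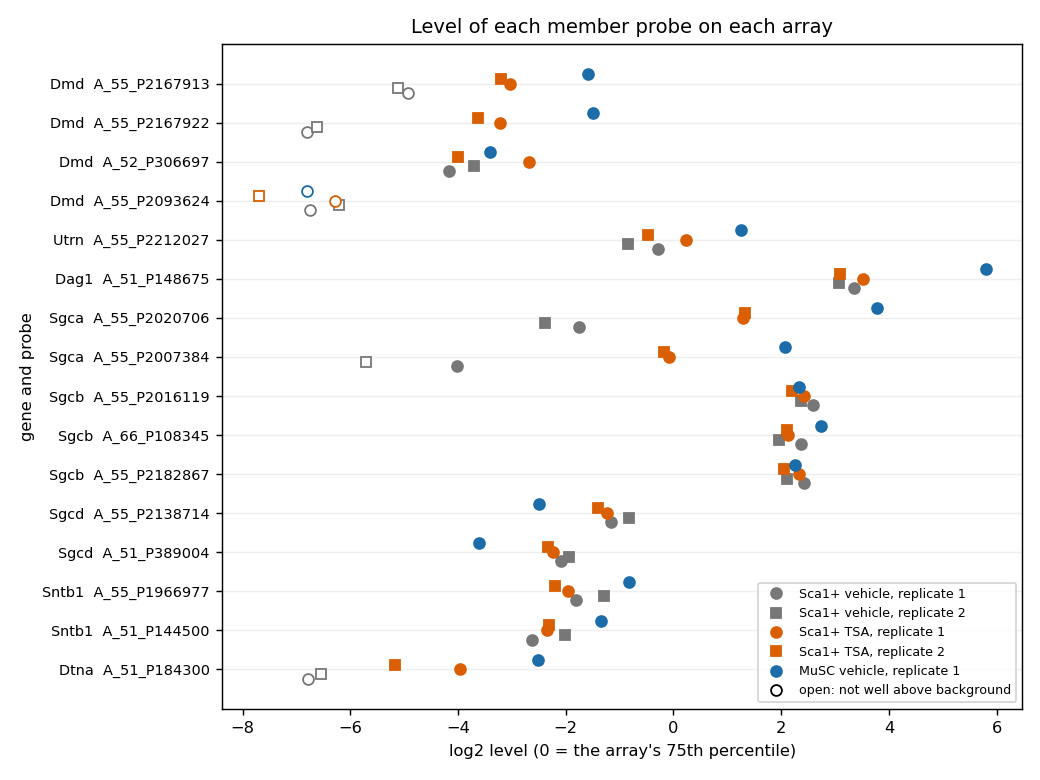
The log2 level of each of the 16 member probes (rows) on each array, with 0 at the array's 75th percentile; open symbols are probes not well above background on that array. The TSA arrays lie right of the vehicle arrays for both Sgca probes and for the actin-binding and rod probes of Dmd, and the MuSC array lies right of both for these, while the 3 Sgcb probes stay between 1.96 and 2.75 on all arrays.

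The actin-binding probe of Dmd had levels of -4.92 and -5.11 with vehicle, -3.03 and -3.20 with TSA and -1.58 in MuSC. Both vehicle arrays failed to measure it well above background, the other 3 did measure it, and the 3 groups did not overlap. Because the vehicle level is only a bound, the change is given as a bound too, measured against the lowest signal well above background on those arrays or the probe's own level where higher. Dmd read by this probe was at least 2.65-fold higher with TSA (adjusted p = 0.0227, limma) and at least 7.67-fold higher in MuSC (adjusted p = 0.00277, limma). MuSC were also above the TSA arrays, by 1.54 ± 0.21 on the log2 scale (adjusted p = 0.0250, limma).

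The rod probe gave the same order. Its levels were -6.81 and -6.62 with vehicle, -3.23 and -3.62 with TSA and -1.49 in MuSC, again without overlap and again not well above background with vehicle. Over the floor it was 2.14-fold higher with TSA (adjusted p = 0.0104, limma) and 8.15-fold higher in MuSC (adjusted p = 0.00207, limma). The MuSC array exceeded the TSA arrays by 1.93 ± 0.26 (adjusted p = 0.0233, limma).

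The C-terminal probe, which can also read the short transcripts, showed no such order. It was well above background on all 5 arrays, with levels of -4.16 and -3.69 with vehicle, -2.69 and -4.01 with TSA and -3.40 in MuSC. The TSA arrays lay on either side of the vehicle arrays, and the difference of 0.58 ± 0.50 did not pass the threshold (95% interval -0.77 to 1.93, adjusted p = 0.518, limma). On slide 1 the TSA array was 1.48 above vehicle, and on slide 2 it differed by -0.31. MuSC differed from vehicle by 0.53 ± 0.61 (95% interval -1.13 to 2.19, adjusted p = 0.595, limma). The difference between probes was not itself tested. With TSA the fold of the rod probe over the floor, 2.14-fold, lies within the interval of the C-terminal probe, but that fold is only a bound from below. In MuSC the rod probe's 8.15-fold over the floor lies above the interval of the C-terminal probe. Both changes of the rod probe are smaller under the background correction given below. The probe near the 3' end ranged from -7.70 to -6.20 and gives no level on any array beyond background.

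Utrophin, the relative that can stand in for dystrophin at the membrane, was read by 1 probe at chr10:12221228-12221287 (-). Its levels were -0.28 and -0.84 with vehicle, 0.23 and -0.46 with TSA and 1.25 in MuSC. Vehicle and TSA arrays overlapped, and the difference of 0.45 ± 0.34 did not pass (95% interval -0.47 to 1.36, adjusted p = 0.470, limma). TSA was above vehicle on both slides, by 0.51 and 0.38. The MuSC array lay above all 4 others, 1.81 ± 0.42 above vehicle, just short of the threshold (adjusted p = 0.0518, limma). This value passed in 8 of 9 other settings that kept all arrays. When any 1 Sca1+ array was left out it did not pass, with values of 1.53 to 2.09.

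Dag1 encodes both subunits of dystroglycan, the laminin-binding alpha subunit and the beta subunit that spans the membrane and binds dystrophin. Its probe at chr9:108108491-108108550 (-) had levels of 3.34 and 3.06 with vehicle, 3.52 and 3.09 with TSA and 5.80 in MuSC. The Sca1+ arrays overlapped and the MuSC array stood apart from all of them. TSA differed from vehicle by 0.10 ± 0.23 (95% interval -0.53 to 0.73, adjusted p = 0.813, limma). Dag1 was 2.60 ± 0.28 higher in MuSC than in vehicle Sca1+ cells (6.06-fold, adjusted p = 0.00903, limma) and 2.50 ± 0.28 higher than in TSA Sca1+ cells (adjusted p = 0.0166, limma).

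Among the sarcoglycans the 3 members differed from one another. Sgca encodes alpha-sarcoglycan, which is known from skeletal and heart muscle. Its probe at chr11:94824124-94824183 (-) had levels of -1.76 and -2.38 with vehicle, 1.30 and 1.33 with TSA and 3.79 in MuSC. It was well above background on every array, and the groups were far apart compared with the spread within them. The rise with TSA was 3.38 ± 0.26 (10.4-fold, adjusted p = 0.0149, limma), 3.06 on slide 1 and 3.71 on slide 2. MuSC were 5.86 ± 0.32 above vehicle (57.9-fold, adjusted p = 0.00228, limma) and 2.47 ± 0.32 above TSA (adjusted p = 0.0215, limma).

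The coding probe of Sgca, whose sequence is shown above, had levels of -4.02 and -5.72 with vehicle, -0.08 and -0.18 with TSA and 2.06 in MuSC. Only 1 of the 2 vehicle arrays measured it well above background, so its larger changes carry a larger error. They were 4.73 ± 0.60 with TSA (adjusted p = 0.0477, limma) and 6.93 ± 0.74 in MuSC against vehicle (adjusted p = 0.00843, limma). Without vehicle replicate 1 they were 5.58 and 7.78, and without vehicle replicate 2 they were 3.88 and 6.08. MuSC differed from TSA by 2.20 ± 0.74, which did not pass here (adjusted p = 0.153, limma). The other probe passed with a similar size, 2.47 ± 0.32, and a difference between the probes was not tested.

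Sgcb encodes beta-sarcoglycan, which is also made outside muscle, and none of its 3 probes on chromosome 5 was called in any of the 3 comparisons. The probe with the highest mean had levels of 2.59 and 2.37 with vehicle, 2.42 and 2.20 with TSA and 2.33 in MuSC. The TSA differences of the 3 probes ran from -0.17 to -0.05 (adjusted p between 0.609 and 0.904, limma), and the MuSC differences from vehicle ran from -0.14 to 0.58 (adjusted p between 0.199 and 1.00, limma). For 2 of the 3 probes the sign of the TSA difference turns under another scaling, so no direction is given.

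Sgcd encodes delta-sarcoglycan, the partner of beta-sarcoglycan in the core of the subcomplex. Its probes at chr11:46939058-46939117 (-) and chr11:46794345-46794404 (-), both in coding sequence, went the opposite way to Sgca in MuSC. The first had levels of -1.16 and -0.82 with vehicle, -1.23 and -1.41 with TSA and -2.49 in MuSC. The second had -2.09 and -1.93, then -2.23 and -2.33, and -3.61. In both, the MuSC array was lowest and the TSA arrays lay just below the vehicle arrays without overlap. Against vehicle, MuSC were lower by -1.50 ± 0.24 (adjusted p = 0.0222) and -1.60 ± 0.20 (adjusted p = 0.0122, both limma). The first of these missed the threshold without vehicle replicate 2 (adjusted p = 0.0667) and without either TSA array (adjusted p = 0.0632, limma). The TSA differences of -0.33 ± 0.20 and -0.27 ± 0.16 did not pass (adjusted p = 0.384 and 0.389, limma).

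Sntb1 encodes beta1-syntrophin, an adaptor that binds dystrophin and dystrobrevin, and neither of its probes on chromosome 15 passed a test. The probe at chr15:55623590-55623649 (-) had levels of -1.82 and -1.29 with vehicle, -1.96 and -2.20 with TSA and -0.83 in MuSC. Its TSA difference was -0.53 ± 0.25 (adjusted p = 0.301, limma), with all TSA arrays below the vehicle arrays. The probe at chr15:55470721-55470780 (-) had levels of -2.62 and -2.01, then -2.34 and -2.30, and -1.34, and its TSA difference was -0.01 ± 0.26 (adjusted p = 0.988, limma). The MuSC array was the highest of the 5 for both, at 0.72 ± 0.31 and 0.97 ± 0.31 above vehicle (adjusted p = 0.190 and 0.112, limma).

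Dtna encodes alpha-dystrobrevin, which binds dystrophin and the syntrophins. Its probe at chr18:23748714-23748773 (+) had levels of -6.79 and -6.54 with vehicle, -3.96 and -5.16 with TSA and -2.51 in MuSC. It was not well above background with vehicle, and the 3 groups did not overlap. Over the floor it was 4.03-fold higher in MuSC than in vehicle Sca1+ cells (adjusted p = 0.0135, limma). Without either vehicle array this call missed the threshold (adjusted p = 0.0512 and 0.0517, limma). With TSA the test did not pass (adjusted p = 0.120, limma). No fold is given, since the mean TSA level of -4.56 was not above the mean of the vehicle floors (-4.62 and -4.42). The TSA test passed in 3 of 9 other settings that kept all Sca1+ arrays. They were scaling on the median, quantile normalization and the deposited table (adjusted p = 0.00512, 0.0408 and 0.0446, limma).

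**Figure D2:**
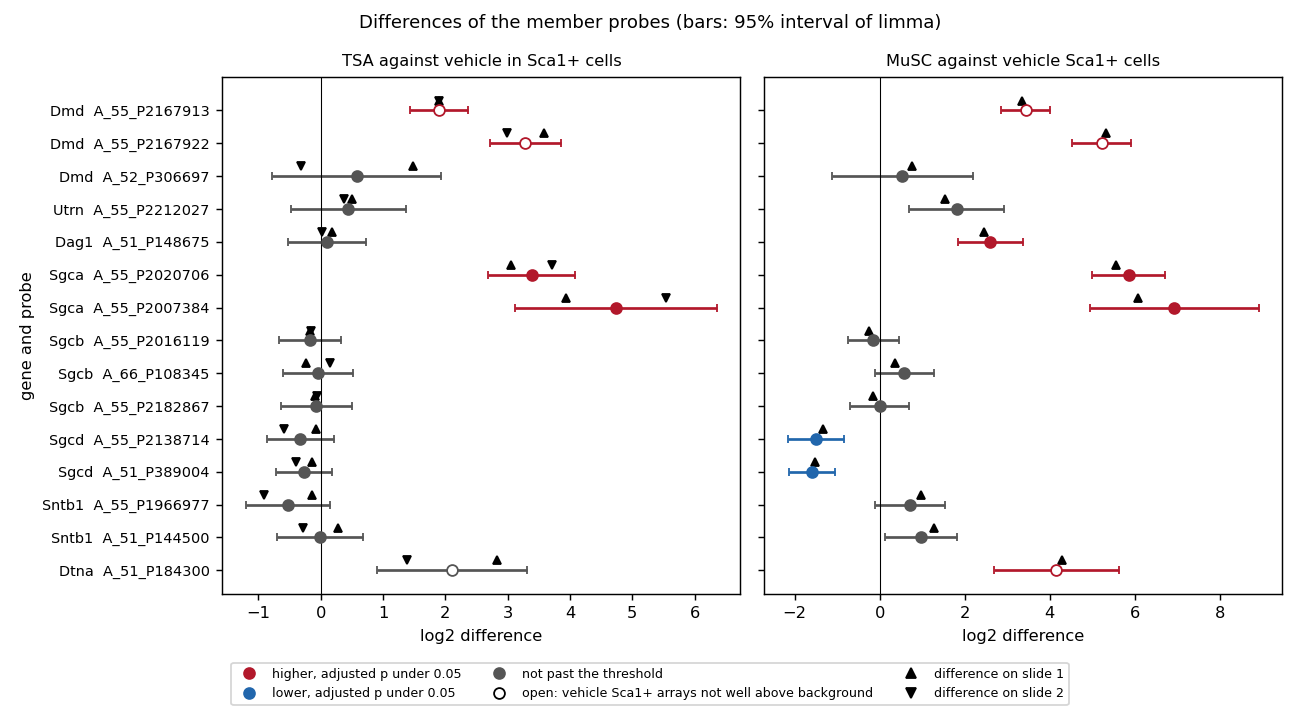
Fitted log2 differences of the 15 tested member probes for TSA against vehicle Sca1+ cells (left) and MuSC against vehicle Sca1+ cells (right), with the 95% interval of limma as bars and the difference on each slide as triangles. Open circles rest on vehicle arrays not well above background, for which the text gives any fold over a floor. With TSA, 4 probes of Dmd and Sgca are called higher, and in MuSC 6 probes are called higher and both Sgcd probes lower.

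In MuSC against TSA Sca1+ cells, 4 of the 15 probes were called higher, where 4.09% of all probes were, and 1 was called lower, where 6.67% of all probes were. The 4 are the actin-binding and rod probes of Dmd, Dag1 and the first Sgca probe, and the 1 is the second Sgcd probe, lower by -1.33 ± 0.20 (adjusted p = 0.0298, limma). For both Sgca probes and the actin-binding and rod probes of Dmd, the TSA arrays thus lay between vehicle Sca1+ cells and MuSC, while for Dag1 they lay with vehicle.

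Markers of several other cell types were also higher with TSA, and those of others were not. Over all probes, 2.14% were called higher with TSA and 0.128% lower. In MuSC against vehicle, 9.37% of all probes were called higher and 10.2% lower. Of 9 satellite cell markers, 5 were higher with TSA, among them Pax7 (3.07 ± 0.30). Their summed linear level, in units of the array's 75th percentile, was 14.0 to 15.4 with vehicle, 21.0 to 21.4 with TSA and 131 in MuSC. Of these, Myf5, Calcr and Chrdl2 were not well above background with vehicle. Of 10 markers of differentiated muscle fibres, 7 were higher with TSA, with sums of 1.79 to 1.96, 24.4 to 29.2 and 151, and Ttn, Mylpf and Ryr1 were not well above background with vehicle. Of 9 smooth muscle and pericyte markers, 7 were higher with TSA (sums of 64.6 to 70.0, 573 to 623 and 1631, with Lmod1 not well above background with vehicle), as were 6 of 8 Schwann cell markers (5.09 to 5.76, 35.5 to 36.4 and 115). Of 6 mast cell markers, 5 were higher with TSA (1.83 to 2.17, 29.8 to 32.4 and 1.27, with Cma1 and Fcer1a not well above background with vehicle), and so were 3 of 4 tested red blood cell markers (43.9 to 44.7, 693 to 739 and 17.7). The mast and red cell sums were lowest in MuSC, while the satellite cell, fibre, smooth muscle and Schwann cell sums were highest there. Of 8 markers of fibroadipogenic progenitors, 0 passed with TSA (2943 to 4307, 1474 to 1786 and 284). Of 8 endothelial markers, 1 was higher with TSA and 5 were lower in MuSC (70.0 to 108, 99.9 to 103 and 55.9), and of 8 macrophage markers 0 passed with TSA (169 to 238, 124 to 128 and 82.8). In MuSC against vehicle, 1 macrophage marker was higher and 1 lower. The sums follow the brightest probes, such as Itgam for macrophages (-0.74 with TSA and -1.54 in MuSC). The median log2 differences of macrophage markers were 0.58 with TSA and 0.74 in MuSC, and those of endothelial markers 0.61 and -1.36. The part of these cells in the changes of Dmd and Sgca was not tested, and in sorted bulk RNA more cells of a type and more RNA per cell cannot be told apart.

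The other subunits and partners of the complex were read through the probe with the highest mean of each gene, in a list of 20 genes of which 18 were tested. With TSA, 2 were higher and 0 lower, where 2.14% and 0.128% of all probes were. The median was -0.24, against -0.13 over all probes. Drp2, a dystrophin relative of Schwann cells, had levels of -1.69 and -1.63 with vehicle, 0.66 and 0.70 with TSA and 3.40 in MuSC, a TSA difference of 2.34 ± 0.15 (adjusted p = 0.0107, limma). Itga7, the laminin receptor subunit used in the gate, had levels of 1.35 and 1.09, then 4.53 and 4.59, and 7.02, a difference of 3.34 ± 0.18 (adjusted p = 0.00727, limma). For both genes the 3 groups were ordered as for Sgca and the actin-binding and rod probes of Dmd.

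In MuSC against vehicle Sca1+ cells, 3 of the 18 were higher and 5 lower, where 9.37% and 10.2% of all probes were. The median was -0.17, against -0.03 over all probes. The higher ones were Itga7 (5.80), Drp2 (5.06) and Cav3, the caveolin of muscle (2.94 ± 0.33, adjusted p = 0.00934, limma). The lower ones were the matrix proteoglycan Bgn (-2.83), the laminin chain Lama2 (-2.33), the membrane anchor Ank2 (-2.08), the syntrophin Sntb2 (-1.90) and the sarcoglycan Sgce (-1.57). Bgn and Lama2 encode matrix proteins, which fibroblastic cells are known to make. Of 14 tested enzymes that build the laminin-binding sugar of dystroglycan, 0 passed with TSA (median -0.20). With TSA 2.14% of all probes were called higher and 0.128% lower. In MuSC 1 enzyme, Pomt2, was lower (-0.85 ± 0.19, adjusted p = 0.0491, limma), where 10.2% of all probes were.

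**Figure D3:**
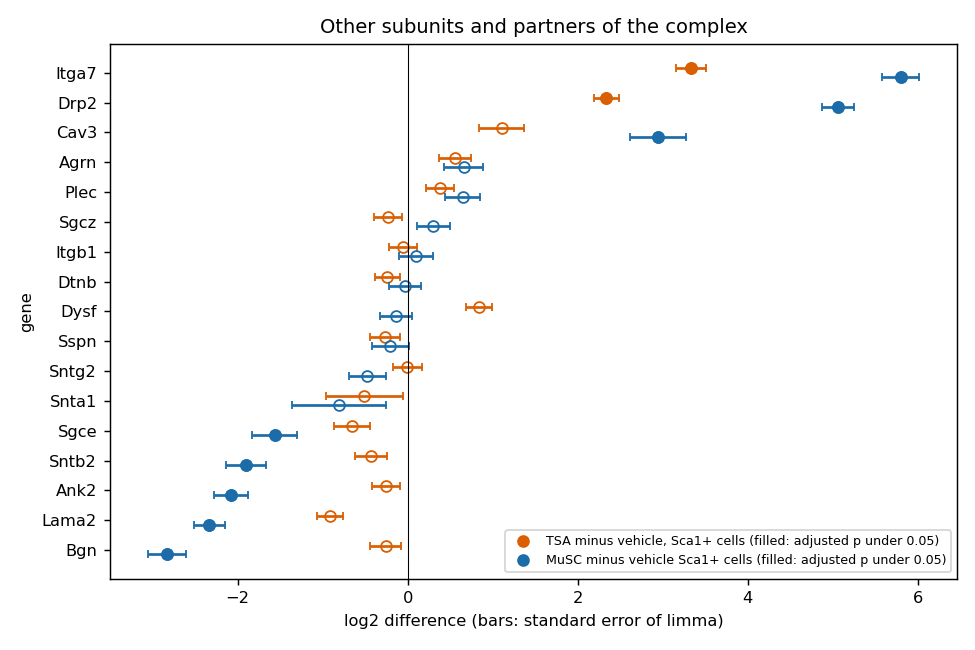
Log2 differences of tested other subunits and partners of the complex, with the standard error of limma as bars; filled points passed an adjusted p of 0.05. Itga7 and Drp2 are called in both comparisons, and Bgn, Lama2, Ank2, Sntb2 and Sgce are called lower in MuSC; whether the comparisons differ was not tested.

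Among 14725 named genes, those whose profile over the 5 arrays lay nearest to a member were found by the root mean square (RMS) difference of centred log2 levels. For Dmd, read by its actin-binding probe, they were Rgs16 (RMS 0.0819), Carns1 (0.0869) and P2rx1 (0.0914), whose TSA differences were 1.84, 1.89 and 1.80. For Sgca they were Dusp27 (0.112), Itga7 (0.116) and Gal3st1 (0.198). For Dag1 they were Csrnp1, Prune2 and Ifnk, for Utrn Gper, Dusp13 and Extl1, for Sgcb Chrac1, Limk2 and Rhox7, for Sgcd Fmnl1, Gpt and Zfp759, for Sntb1 Gdf6, Git2 and Sp9, and for Dtna Reln (0.233), Chmp4c and Mylpf. With 5 arrays in 3 groups these are descriptions, and nearly flat profiles such as that of Sgcb find near neighbours easily.

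The actin-binding and rod probes of Dmd and both Sgca probes were called higher with TSA. Whether the genes change together was not tested. The 250 bases before the RefSeq starts of Dmd and Sgca are shown from the GRCm38.p6 build, read in the direction of the gene. The windows were searched for CANNTG, the E-box letters bound by myogenic factors, for CAGCTG, which CANNTG includes, and for the CArG box and the MEF2 box, all of which read the same on both strands. Matches are in capitals. The first window is chrX:82948620-82948869 (+) at the start of the long Dmd transcript and the second chr11:94976328-94976577 (-) at Sgca.
Dmd long transcript: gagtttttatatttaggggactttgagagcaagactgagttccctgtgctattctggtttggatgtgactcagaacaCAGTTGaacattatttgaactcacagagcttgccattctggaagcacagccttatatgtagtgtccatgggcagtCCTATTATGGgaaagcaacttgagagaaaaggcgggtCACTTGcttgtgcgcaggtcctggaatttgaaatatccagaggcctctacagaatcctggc
Sgca: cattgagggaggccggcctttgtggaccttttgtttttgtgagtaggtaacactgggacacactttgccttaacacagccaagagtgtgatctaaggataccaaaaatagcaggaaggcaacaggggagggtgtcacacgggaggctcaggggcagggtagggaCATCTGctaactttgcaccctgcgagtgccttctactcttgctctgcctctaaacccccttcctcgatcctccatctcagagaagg
The Dmd window held CANNTG 173 and 61 bases before the start and a CArG box 98 bases before it, and the Sgca window held 1 CANNTG 86 bases before the start. Neither held CAGCTG or the strict MEF2 box searched for, and looser MEF2 forms may be present. The window before the short Dmd transcript at chrX:85048045-85048294 (+) held none of the 4. Among the members that did not pass with TSA, Utrn had 7 CANNTG matches, Sgcd 2, each of the 2 Dag1 windows 1 and Sgcb 0, and no window of Sntb1 or Dtna was searched. Of 32851 promoter windows of this length, 66.2% held CANNTG, 13.0% CAGCTG, 1.47% a CArG box and 0.508% a MEF2 box. CANNTG is thus found in most promoters. A match is a description of the letters only.

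The TSA calls rest on few arrays: without either TSA array, or without vehicle replicate 2, 0 of the 4 calls remained, and without vehicle replicate 1 the 2 Sgca calls remained. The fold sizes of dim probes also hang on the background: under a correction that adds an offset of 50, the TSA difference of the actin-binding probe was 0.37 (adjusted p = 0.106), that of the rod probe 0.57 (adjusted p = 0.0378) and those of the Sgca probes 2.51 and 2.06 (adjusted p = 0.00148 and 0.000706, all limma). In MuSC against vehicle the same correction gave 1.16 and 1.40 for these Dmd probes and 0.81 for Dtna (adjusted p = 0.00182, 0.000894 and 0.00952, limma). For these Dmd probes with TSA and in MuSC, and for Dtna in MuSC, the changes are smaller than the folds over the floor given above.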

How the data were processed

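Expression was measured on 5 Agilent arrays of 1 colour (probe positions in mm9, per the file headers). The authors' deposited scanner files hold spot intensity from Feature Extraction 10.7.3.1, with background subtracted in the processed signal, and other columns flag spots. The deposited value table is in log2, with the same median in each column (4.67) and the rank order of the scanner values; how it was centred is not stated. The intensity was scaled to each array's 75th percentile over 59305 non-control spots. Outlier spots (0.196% to 0.334%) were dropped and spots of a probe averaged.

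limma 3.58.1 (R 4.3.3, lmFit and eBayes, two-sided) was fitted to 3 groups, with 2 residual and 2.30 prior degrees of freedom. The single MuSC array is assumed to vary like the others. Replicate arrays correlated at 0.985 and 0.988. The methods were tested on simulated data. For 2 of 5 files the mean signal was not used here, so the background alternative started from the median signal.

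The members and lists were chosen with earlier results of these data known. All member probes were named; of the other complex genes, those past the threshold with TSA and up to 4 of the largest in each direction in MuSC, with Sgce named after its values were seen and 1 gene of the list not reported here by name, and of the glycosylation enzymes the 1 called. Alternatives were the background, scaling, filter, probe choice, replicate block, intensity trend, the deposited table and leaving out each array.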

Additional observations from a re-analysis of the deposited data

How the results depend on the processing

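Over all comparisons and settings, 567 values were recomputed: 462 kept their direction and side of the threshold, 28 newly passed it, 47 no longer did and 30 changed sign. The cause of these changes was not tested. Not all of the 462 could have changed: 15 come from the fit on the 4 Sca1+ arrays, which repeats the main TSA result. The filter, probe choice and trend settings leave each log2 difference as it was, as does leaving out an array that a comparison does not use. Settings with fewer arrays use fewer samples, and other filters change the number of probes tested (with TSA 55681 without a filter, against 36027). With TSA, 816 probes passed (770 higher, 46 lower). The count was 1714 with normexp and quantile normalization (1348 and 366), 1554 with scaling on the median, 220 without a filter, 1967 with an intensity trend (1430 and 537), and 0 to 313 without 1 array. With 0 calls by limma, 6353 (without TSA replicate 1) and 3927 (without TSA replicate 2) probes had an unadjusted p under 0.05. Of the member probes, 5 were called higher under median scaling, quantile normalization and the deposited table, which add Dtna. With all arrays above background 11 member probes were tested, and with 1 probe per gene 8, against 15. In these settings, those of the 4 higher that are not counted next were left out of the test. The settings also leave member probes out of the other comparisons. Of the 4 higher, 1 was called without a filter, 1 with all arrays above background, 2 with 1 probe per gene, and 0 to 2 without 1 array. For MuSC against vehicle, 7059 probes became 3193 without a filter and 3894 to 4814 without 1 array. The 6 member probes higher became 3 with all arrays above background. The 2 lower became 0 without a filter, 1 with 1 probe per gene and 1 to 2 without 1 array. For MuSC against TSA, 3875 became 963 without a filter, 5940 with the trend and 0 to 2495 without 1 array, with 7825 and 6842 at an unadjusted p under 0.05 where 0 passed. The 4 member probes higher became 7 with median scaling, 0 without a filter, 2 with all arrays above background and 0 to 3 without 1 array. The 1 lower became 2 under median scaling, quantile normalization, the deposited table, all arrays above background and the trend, 0 without a filter or with 1 probe per gene, and 0 without any 1 array.

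With the replicate number, which is also the slide, as a block, 942 probes passed with TSA, 7481 for MuSC against vehicle and 3875 for MuSC against TSA. Whether the numbers pair the samples cannot be settled from 2 pairs (correlation of deviations 0.336). The block added Utrn in MuSC against vehicle (adjusted p = 0.0206, limma) and changed no TSA call of a member.

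The sign changes were in differences that did not pass the threshold. With TSA, Sgcb A_66_P108345 gave 0.043 (normexp), 0.046 (median), 0.019 (quantile) and 0.019 (deposited table), and -0.26 to 0.16 without 1 array. Sgcb A_55_P2182867 gave 0.033 (normexp), 0.024 (median) and -0.23 to 0.090 without 1 array, and Sntb1 A_51_P144500 gave 0.0028 (normexp), 0.087 (median), 0.088 (quantile), 0.088 (deposited table) and -0.31 to 0.30 without 1 array. The C-terminal Dmd probe ranged from -0.079 to 1.24 and Dag1 from -0.12 to 0.32 without 1 array. For MuSC against vehicle, Sgcb A_55_P2182867 gave 0.14 (normexp), 0.053 (median), 0.078 (quantile), 0.081 (deposited table) and -0.16 to 0.16. For MuSC against TSA, Sgcb A_55_P2016119 gave -0.025 (normexp), -0.018 (median), -0.086 (block) and -0.083 to 0.13, Sgcb A_55_P2182867 gave -0.082 (block) and -0.074 to 0.21, and the C-terminal Dmd probe -0.71 to 0.61. For the Dmd actin-binding and rod probes and Dtna, the vehicle signal is not well above background. Normexp on the mean signal was not run.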

Other observations

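A few probes carry only a transcript name of the array design for these genes and were not among the 16. The Dmd probe A_55_P2167930 (chrX:82220987-82221046, mm9) had levels of -4.26 and -3.66 with vehicle, -4.29 and -3.53 with TSA and -3.16 in MuSC, well above background on all arrays. The vehicle and TSA arrays overlapped (difference 0.06 ± 0.36, adjusted p = 0.935, limma) and MuSC differed from vehicle by 0.80 ± 0.44 (adjusted p = 0.287, limma). The Utrn probe A_55_P2153961 was not well above background with vehicle. Its levels were -4.80 and -4.98 with vehicle, -4.18 and -4.66 with TSA and -3.98 in MuSC, and neither difference passed (adjusted p = 0.306 and 0.0993, limma). The corresponding probes of Dtna and Sgcd were not well above background on any array.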
